A study of Mus musculus with 18 samples.

Results

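Cardiac and conduction transcription factors were examined as RNA levels in the mouse heart after radiation. The members are Tbx3, Tbx5, Tbx18 and Tbx20 (T-box factors), Nkx2-5, Gata4 and Hand2 (core cardiac factors), and Irx3, Irx4 and Irx5 (Iroquois factors). They were chosen by symbol, each from its Ensembl gene identifier, and make up 10 of the 30072 genes in the deposited tables. All 10 passed the filter on low counts (at least 0.23 CPM, a counts-per-million value, in at least 6 mice), so none was left out.

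The study asked how a single high dose of radiation alters conduction in the heart, and the RNA data compare 18 CD-1 mice in 3 groups of 6. CD-1 is an outbred stock, and the mice were male and female littermates at least 8 weeks old, with no sex given for single samples. The 2wk and 6wk groups received 25 Gy in a single dose under isoflurane and were sampled 2 and 6 weeks later, and the control group received anesthesia without that dose. The labels name the intraventricular septum as the tissue, a mixed genetic background and an untreated control, whereas the paper names ventricles, purchased outbred CD-1 mice, X-rays and a sham control with CT imaging. Each library is bulk RNA from many cell types, so a lower level of a member can reflect fewer cells of a type or less RNA per cell, and these cannot be told apart.

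These factors bind DNA and act together on shared targets. Tbx5, Gata4 and Nkx2-5 form a core that switches on genes of working muscle and of fast conduction such as those of gap junction proteins. Tbx3 represses working muscle genes in nodal tissue, Tbx18 shapes the sinus node head and the epicardium, Tbx20 maintains adult myocytes, Hand2 guides growth of the right ventricle, Irx3 and Irx5 pattern fast conduction and repolarisation, and Irx4 marks the ventricle.

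Total estimated counts lay between 11522979 and 15501002 per mouse (median 13682439), and 3 counts in the deepest library correspond to 0.194 CPM. This depth gave each member at least 49 counts in every mouse. Intervals are 95% confidence intervals of a fold change, with the spread between mice entering through the SE. CPM values carry TMM scaling factors (trimmed mean of M-values), and differences were tested with edgeR's quasi-likelihood test with Benjamini-Hochberg adjustment over the 15054 genes that passed the filter. Mitochondrially encoded genes took a mean of 22.9% of counts in control mice, 19.6% at 2 weeks and 17.9% at 6 weeks. Without TMM scaling, with library size as the only factor, the median gene stood 0.15 higher at 2 weeks and 0.24 higher at 6 weeks on the log2 scale (0.18 and 0.29 as log2(TPM + 1)), so directions below are relative to the TMM baseline. Of the genes called, 61.6% were higher at 2 weeks and 54% at 6 weeks with TMM scaling, 95.4% and 94.4% with library size only, and 98.6% and 98.4% as log2(TPM + 1). With TMM scaling, summed cardiomyocyte markers were 79722 to 88357 CPM at 6 weeks and 90054 to 118590 in control mice. These ranges did not overlap (exact permutation test, adjusted p = 0.0195 over 45 tests, 6 mice per group). The TMM factors of these groups did not overlap either, at 1.04 to 1.13 at 6 weeks and 0.844 to 0.991 in control mice. The median log2 fold change of the 10 markers was -0.45 with TMM scaling and -0.18 with library size only. Of the 10 cardiomyocyte markers, 8 were called lower at 6 weeks with TMM scaling, against 11.5% of all genes, or 2 with library size only. Of 8 macrophage and leukocyte markers 7 were called higher at 6 weeks, against 13.5% of all genes. Their sum was 433 to 598 CPM, compared with 164 to 495 CPM in control mice.

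The level of each member in TPM, a transcripts-per-million scale that accounts for transcript length, placed Tbx20 and Gata4 at the top. The median TPM over 18 mice was 51.5 for Tbx20, 48.5 for Gata4, 33.6 for Nkx2-5 and 27.9 for Hand2. Irx4 followed at a median TPM of 12.8, with Tbx5 at 6.56, Tbx3 at 5.65 and Irx3 at 5.06. Irx5 and Tbx18 were lowest, at median TPM of 2.02 and 1.94. The ranges over the mice separated Hand2 from Irx4, Irx4 from Tbx5, and Irx3 from Irx5. All other neighbours in this order overlapped in range, and Tbx20 exceeded Gata4 in 11 of 18 mice.

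Because these factors regulate genes of one another, the 250 bases upstream of each start were searched on both strands for a short binding word of each family, in RefSeq sequence (GRCm38.p6). Sequences were available for Hand2, Irx3, Irx4, Tbx18, Tbx20 and Nkx2-5. The stretches of Nkx2-5 (chr17:26841566-26841815) and Irx3 (chr8:91801655-91801904) lie within the whole-gene positions given below. That of Irx4 (chr13:73260247-73260496) overlaps the first bases of its gene. The words were GGTGTGA for T-box factors, AGATAA for GATA factors, CAAGTG for NK2 factors, ACANNTGT for Iroquois factors and CATCTG, an E-box for basic helix-loop-helix factors, and their matches did not overlap. The T-box word was found in 0 of 6 members (3.33% of 32851 promoters) and the Iroquois word in 0 of 6 (6.31%). The GATA word was found in Hand2 alone (9.99% of promoters), the NK2 word in Hand2 alone (11.6%) and the E-box in Hand2 and Tbx18 (14.4%). These upstream sequences are shown because they hold all the matches, chr8:57320733-57320982 on the plus strand for Hand2 and chr9:87731261-87731510 on the minus strand for Tbx18, each 5′ to 3′ with the matches in capitals.
Hand2: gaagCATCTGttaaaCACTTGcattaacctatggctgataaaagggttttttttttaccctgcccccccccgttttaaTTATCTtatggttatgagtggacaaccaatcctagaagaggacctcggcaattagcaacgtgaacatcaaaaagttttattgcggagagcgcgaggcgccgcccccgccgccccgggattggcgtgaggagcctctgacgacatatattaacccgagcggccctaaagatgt
Tbx18: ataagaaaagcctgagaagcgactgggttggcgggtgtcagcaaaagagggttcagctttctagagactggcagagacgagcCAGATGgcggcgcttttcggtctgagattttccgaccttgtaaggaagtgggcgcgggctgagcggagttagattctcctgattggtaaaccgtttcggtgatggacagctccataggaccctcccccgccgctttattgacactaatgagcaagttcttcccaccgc
In Hand2 the E-box begins 246 bases before the start, the NK2 word (minus strand) 235 bases before it and the GATA word (minus strand) 172 bases before it. In Tbx18 the E-box (minus strand) begins 168 bases before the start. A match describes these letters and shows no binding. Other words of these families were not searched, so the capitals mark only the words given.

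At 2 weeks none of the 10 genes passed the test, against 5.02% of all genes tested (755 of 15054; 3.09% higher, 1.93% lower). No member had an unadjusted p under 0.05 in edgeR, against 20.4% of all genes, and none had groups that did not overlap, which 3.24% of all genes did. The members' log2 fold changes had a median of -0.01 and a median size of 0.04, compared with -0.002 and 0.16 over all genes.

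At 6 weeks 1 of the 10 genes, Tbx5, passed the test and was lower than in control mice, against 25.0% of all genes called in either direction, 13.5% higher and 11.5% lower. Unadjusted, 3 members had p under 0.05 (Tbx5, Tbx18 and Nkx2-5), and 36.2% of all genes did. The median log2 fold change of the members was -0.17, with a median size of 0.18 compared with 0.22 over all genes, and 7 of the 10 lay below 0. No member had groups that did not overlap, compared with 9.23% of all genes. Between 2 and 6 weeks none of the members passed the test, against 5.33% of all genes (3.31% higher, 2.01% lower). Tbx5 and Gata4 had an unadjusted p under 0.05 there, as did 21.3% of all genes, and no member had groups that did not overlap, compared with 3.54%. No member was called with a log2 fold change beyond 1 in either direction in any comparison, against 0.903% of all genes at 2 weeks, 5.95% at 6 weeks and 1.14% between them. Both times were compared with the same 6 control mice, so their values are given side by side.

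**Figure D1:**
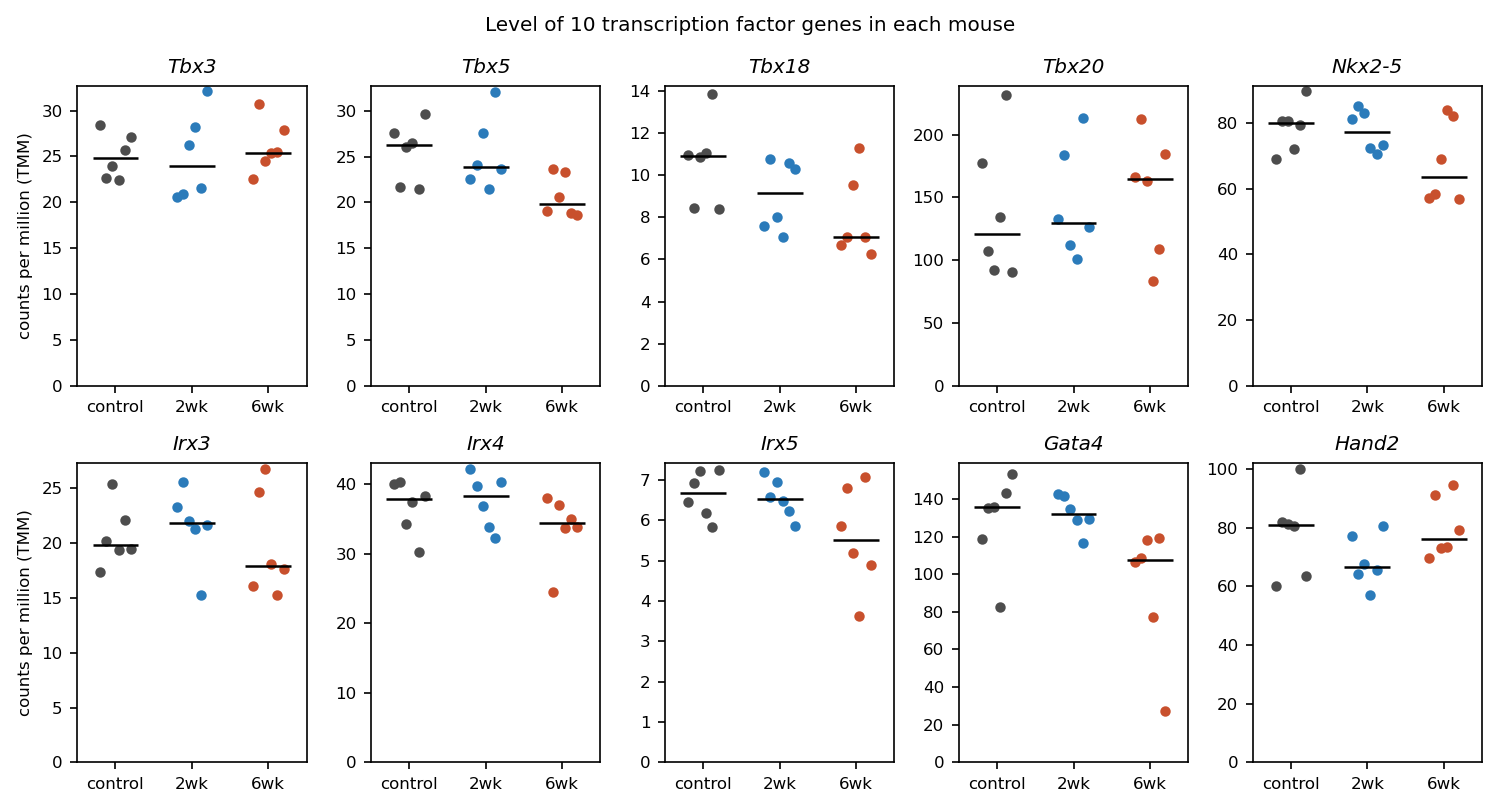
Each panel shows the TMM-scaled CPM of 1 gene on a linear axis from 0, with 1 point per mouse, 6 mice per group (control, 2wk, 6wk) and a line at the group median. The groups overlap in every panel, and 1 mouse at 6wk has 27.5 CPM of Gata4.

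Tbx5 (ENSMUSG00000018263, chr5:119832668-119885219, plus strand), a T-box activator of atrial, ventricular and conduction genes, was the single member that passed. In control mice Tbx5 ran from 21.5 to 29.7 CPM (median 26.2). At 2 weeks it ran from 21.5 to 32.0 CPM (median 23.9). At 6 weeks it ran from 18.6 to 23.6 CPM (median 19.8), so that every mouse at 6 weeks lay below the control median although the ranges overlapped. The log2 fold change of Tbx5 at 6 weeks against control was -0.30 (SE 0.107, 95% CI -0.53 to -0.08, edgeR adjusted p = 0.0453), a level 18.9% lower with TMM scaling, whereas it was -0.04 with library size only and 0.08 higher as log2(TPM + 1). At 2 weeks its log2 fold change was -0.01 (SE 0.106, edgeR adjusted p = 0.963), and from 2 to 6 weeks it was -0.29 (SE 0.107, edgeR adjusted p = 0.12).

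Positions here and below are those of the whole gene on GRCm38. The call on Tbx5 lay close to the threshold. Across 18 fits that each left out 1 mouse, 8 kept an adjusted p under 0.05, with a range from 0.0267 to 0.113. The call was lost without control replicate 1, 3, 4 or 6, without 2wk replicate 2 or 6, and without 6wk replicate 1, 3, 5 or 6. Of the 17 other alternatives 6 kept it, and limma voom gave 0.0504 where DESeq2 gave 0.039. With the replicate number as a block the edgeR adjusted p was 0.0937, although the numbers do not pair the mice.

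Atrial markers varied between mice more than Tbx5 did. The sum of Myl7, Myl4 and Sln, myosin light chains and a calcium pump regulator of atrial muscle, ran from 2.41 to 131.5 CPM in control mice, from 0.661 to 582.9 CPM at 2 weeks and from 1.19 to 131.1 CPM at 6 weeks. The mouse with 582.9 CPM, 2wk replicate 5, also had the highest Tbx5, 32.0 CPM. Other mice went the other way. Control replicate 3, at 2.41 CPM of these markers, had 26.0 CPM of Tbx5. Control replicate 5, at 115.4 CPM, had 21.5 CPM, the lowest Tbx5 of its group. Over the whole list of 7 atrial markers, 5 were tested and 1 (Stard10) was called at 6 weeks, where it was lower, against 25.0% of all genes called. Bmp10, an atrial marker too low for the test, reached no more than 9 counts. The summed level of the whole list ran from 258 to 1599 CPM in control mice, from 177 to 1282 CPM at 2 weeks and from 81.3 to 706 CPM at 6 weeks. The atrial covariate, the log2 sum of Myl7, Myl4 and Sln, was an alternative chosen after the data were seen. With it, the log2 fold change of Tbx5 at 6 weeks was -0.27 (SE 0.102, edgeR adjusted p = 0.0552). The part of the cardiomyocyte marker level in the lower Tbx5 cannot be told apart from time after radiation, since those groups did not overlap with TMM scaling.

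Tbx3 (ENSMUSG00000018604, chr5:119670669-119684724, plus strand) is a repressor of working muscle genes in nodal tissue. Its level ran from 22.5 to 28.4 CPM in control mice (median 24.8), from 20.6 to 32.1 CPM at 2 weeks (median 23.9) and from 22.6 to 30.7 CPM at 6 weeks (median 25.4). The 3 groups overlapped throughout. The summed level of 7 nodal markers overlapped in the same way, at 53.1 to 73.5 CPM in control mice and 48.3 to 77.5 CPM at 6 weeks. The log2 fold change of Tbx3 was -0.01 (SE 0.11, edgeR adjusted p = 0.982) at 2 weeks and 0.06 (SE 0.109, 95% CI -0.17 to 0.29, edgeR adjusted p = 0.761) at 6 weeks. Without TMM scaling Tbx3 was called higher at 6 weeks, by 0.32 with library size only (adjusted p = 0.0387) and by 0.41 as log2(TPM + 1) (limma adjusted p = 0.0101), where the median gene also stood higher.

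Tbx18 (ENSMUSG00000032419, chr9:87702800-87731260, minus strand), a factor of the sinus node head and the epicardium, ran from 8.37 to 13.8 CPM in control mice (median 10.9), from 7.06 to 10.7 CPM at 2 weeks (median 9.13) and from 6.25 to 11.3 CPM at 6 weeks (median 7.08). All 6 mice at 2 weeks and 5 of 6 at 6 weeks lay below the control median, with overlapping ranges. The log2 fold change was -0.23 (SE 0.162, edgeR adjusted p = 0.445) at 2 weeks and -0.41 (SE 0.164, 95% CI -0.75 to -0.07, edgeR adjusted p = 0.0748) at 6 weeks. Without 6wk replicate 4, the mouse with 11.3 CPM, the value at 6 weeks was -0.54 and passed (edgeR adjusted p = 0.0171). As log2(TPM + 1) the value at 2 weeks was 0.06. The summed level of 7 epicardial markers ran from 9.23 to 21.9 CPM in control mice, from 15.6 to 35.9 CPM at 2 weeks and from 17.1 to 26.1 CPM at 6 weeks, and its part in the Tbx18 values was not tested.

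Tbx20 (ENSMUSG00000031965, chr9:24718138-24774303, minus strand), a T-box factor needed by adult myocytes, had a wide spread of counts. In control mice it ran from 90.7 to 231.3 CPM (median 120.8), at 2 weeks from 101.1 to 213.7 CPM (median 129.9) and at 6 weeks from 83.3 to 212.2 CPM (median 164.9). The ranges of all 3 groups overlapped over most of their length. On the log2 scale Tbx20 differed from control by 0.06 (SE 0.256, edgeR adjusted p = 0.923) at 2 weeks and 0.14 (SE 0.256, 95% CI -0.40 to 0.68, edgeR adjusted p = 0.746) at 6 weeks, so changes within this interval were not resolved.

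Part of the spread of Tbx20 lay between its counts and its length-corrected level. The ratio of counts to TPM, set to a geometric mean of 1 over the mice, ran from 0.744 to 0.83 in 10 mice and from 1.25 to 1.66 in the other 8, with none between. The high ratio was found in 2 of 6 control mice, 2 of 6 mice at 2 weeks and 4 of 6 at 6 weeks. The highest ratio was 2.23 times the lowest, a spread larger than that of 97.9% of 9371 genes, for which the median was 1.15. The annotation lists 5 Tbx20 transcripts, of which 3 are protein coding and 455 to 9091 nt long. With counts derived from TPM and scaled by average transcript length, an alternative chosen after the data were seen, the SE fell to 0.107 and the log2 fold change at 6 weeks was -0.01 (edgeR adjusted p = 0.958). As log2(TPM + 1) with limma, without scaling between mice, Tbx20 was called higher at 6 weeks by 0.38 (adjusted p = 0.0252).

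**Figure D2:**
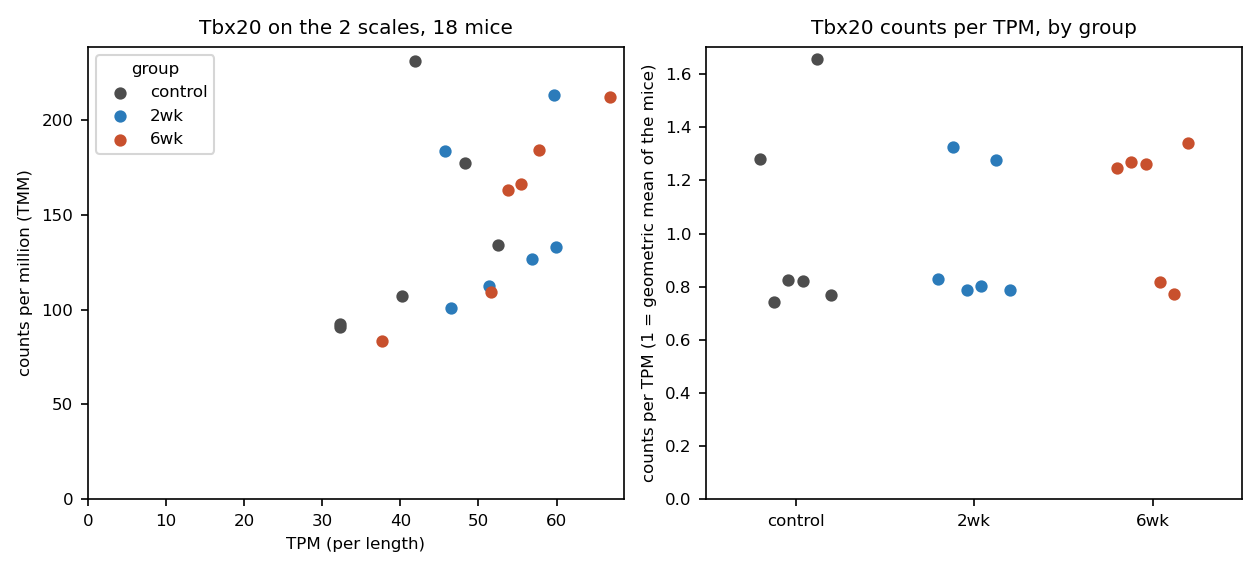
Left, TMM-scaled CPM of Tbx20 against its TPM in 18 mice, both on linear axes from 0 and coloured by group. Right, counts per TPM relative to the geometric mean of the mice, 1 point per mouse, which fall between 0.744 and 0.83 in 10 mice and between 1.25 and 1.66 in 8.

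Nkx2-5 (ENSMUSG00000015579, chr17:26838664-26845009, minus strand), the homeodomain factor of the cardiac core, ran from 69.0 to 89.6 CPM in control mice (median 80.1), from 70.5 to 85.3 CPM at 2 weeks (median 77.3) and from 56.7 to 83.8 CPM at 6 weeks (median 63.7). Of the mice at 6 weeks 4 lay below the control median and 2 above it. The log2 fold change was -0.02 (SE 0.1, edgeR adjusted p = 0.947) at 2 weeks and -0.21 (SE 0.101, edgeR adjusted p = 0.137) at 6 weeks. Without 6wk replicate 4 it was -0.28 and passed (edgeR adjusted p = 0.0398), whereas with library size only it was 0.05 and as log2(TPM + 1) 0.14.

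Gata4 (ENSMUSG00000021944, chr14:63198922-63271692, minus strand), a zinc finger partner of Nkx2-5 and Tbx5, ran from 82.4 to 153.0 CPM in control mice (median 135.4), from 116.5 to 142.4 CPM at 2 weeks (median 131.9) and from 27.5 to 119.4 CPM at 6 weeks (median 107.4). All 6 mice at 6 weeks lay below the control median, and the ranges overlapped, with 2 control mice (82.4 and 118.9 CPM) below the highest mouse at 6 weeks. Its log2 fold change was 0.05 (SE 0.234, edgeR adjusted p = 0.938) at 2 weeks, -0.46 (SE 0.235, 95% CI -0.95 to 0.03, edgeR adjusted p = 0.166) at 6 weeks and -0.51 (SE 0.235, edgeR adjusted p = 0.217) from 2 to 6 weeks. Without 6wk replicate 6, the mouse at 27.5 CPM, the value at 6 weeks against control was -0.27 (SE 0.132, edgeR adjusted p = 0.163).

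The low Gata4 of 6wk replicate 6 was shared by genes near it on chromosome 14. Within 500 kb of Gata4, 10 other genes were tested, and in 7 of them this mouse had the lowest level of the 18, compared with 7.55% of all genes tested. Blk, a Src family kinase gene 101 kb away, was at 0.376 CPM in this mouse against a median of 2.92 CPM in the other 17. Wdfy2, 237 kb away, was at 2.71 CPM against 8.07 CPM. Mtmr9, a phosphatase-like gene 248 kb away, was at 9.71 CPM against 20.7 CPM. Xkr6, 335 kb away, was at 3.16 CPM against 2.86 CPM and so was not low. Among the 7, Ints6 was lowest by little, at 14.1 CPM with the next mouse at 14.3 CPM. Fam167a and Neil2 were low in all mice, at medians of 0.776 and 1.08 CPM in the other 17. The cause of this shared low level was not tested.

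**Figure D3:**
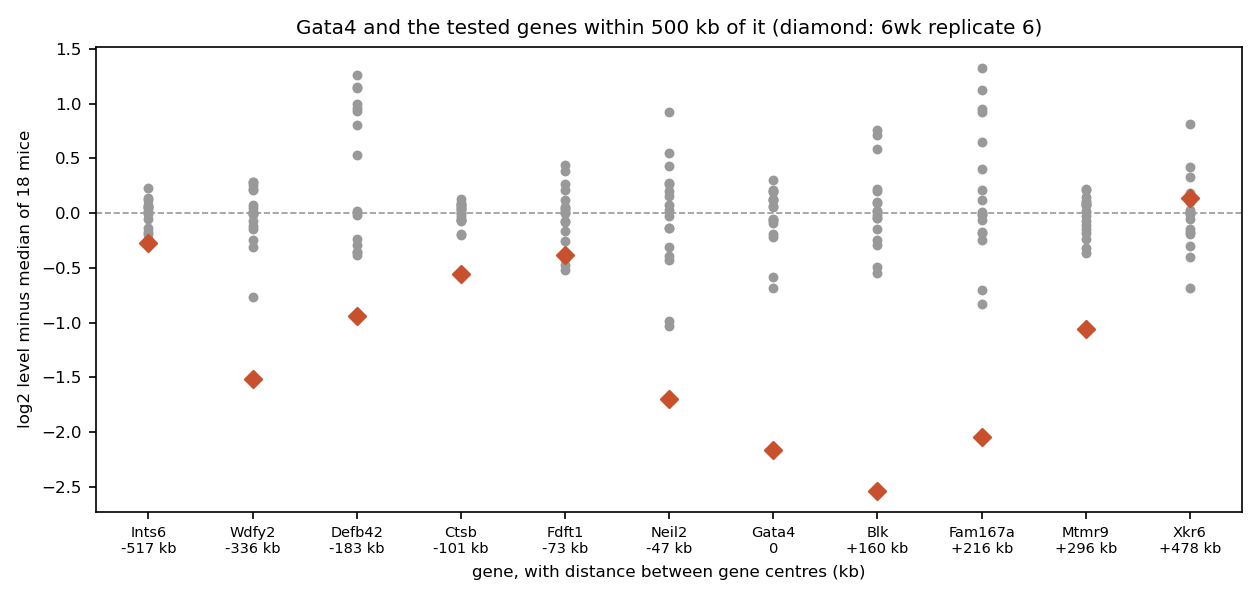
The log2 level of Gata4 and of the 10 tested genes within 500 kb, each minus its median over 18 mice, ordered by distance between gene centres in kb. The diamond is 6wk replicate 6, the lowest of the 18 mice for Gata4 and for 7 of the 10 other genes (at 0 CPM for Defb42, as were other mice), and grey points are the other 17 mice.

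Hand2 (ENSMUSG00000038193, chr8:57320983-57324633, plus strand), a basic helix-loop-helix factor, ran from 60.0 to 100.02 CPM in control mice (median 80.9), from 57.1 to 80.7 CPM at 2 weeks (median 66.5) and from 69.5 to 94.5 CPM at 6 weeks (median 76.2). All 6 mice at 2 weeks lay below the control median, and all 6 at 6 weeks lay above the median at 2 weeks, with ranges that overlapped. On the log2 scale Hand2 differed from control by -0.18 (SE 0.117, edgeR adjusted p = 0.411) at 2 weeks, 0.04 (SE 0.117, edgeR adjusted p = 0.841) at 6 weeks and by 0.22 (SE 0.117, edgeR adjusted p = 0.29) from 2 to 6 weeks. Without TMM scaling Hand2 was called higher at 6 weeks, by 0.30 with library size only (adjusted p = 0.0436) and by 0.41 as log2(TPM + 1) (limma adjusted p = 0.00762).

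The Iroquois genes did not pass any of the tests with TMM scaling. Irx3 (ENSMUSG00000031734, chr8:91798525-91802067, minus strand) ran from 17.4 to 25.4 CPM in control mice (median 19.9), from 15.3 to 25.6 CPM at 2 weeks (median 21.8) and from 15.3 to 26.8 CPM at 6 weeks (median 17.9). The ranges overlapped throughout, with log2 fold changes of 0.06 (SE 0.143, edgeR adjusted p = 0.864) at 2 weeks and -0.06 (SE 0.144, edgeR adjusted p = 0.796) at 6 weeks. The value of Irx3 at 6 weeks was 0.24 as log2(TPM + 1) and 0.21 with library size only.

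Irx4 (ENSMUSG00000021604, chr13:73260479-73269608, plus strand), the ventricular Iroquois gene, ran from 30.3 to 40.3 CPM in control mice (median 37.9), from 32.2 to 42.3 CPM at 2 weeks (median 38.3) and from 24.6 to 38.0 CPM at 6 weeks (median 34.5). Of the mice at 6 weeks 5 lay below the control median, and 6wk replicate 2 stood apart at 24.6 CPM. Its log2 fold change was 0.03 (SE 0.0995, edgeR adjusted p = 0.908) at 2 weeks and -0.13 (SE 0.0998, edgeR adjusted p = 0.394) at 6 weeks, and without that mouse the latter was -0.05 (SE 0.084). With library size only the value at 6 weeks was 0.14 and as log2(TPM + 1) it was 0.22.

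Irx5 (ENSMUSG00000031737, chr8:92357625-92376286, plus strand), which represses a potassium channel gene across the ventricular wall, ran from 5.82 to 7.25 CPM in control mice (median 6.68), from 5.86 to 7.19 CPM at 2 weeks (median 6.53) and from 3.63 to 7.08 CPM at 6 weeks (median 5.52). The 6wk group was spread downward and 4 of its 6 mice lay below the control median. On the log2 scale Irx5 differed from control by -0.02 (SE 0.129, edgeR adjusted p = 0.964) at 2 weeks and -0.25 (SE 0.131, 95% CI -0.52 to 0.03, edgeR adjusted p = 0.187) at 6 weeks, but 0.02 with library size only and 0.07 as log2(TPM + 1).

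**Figure D4:**
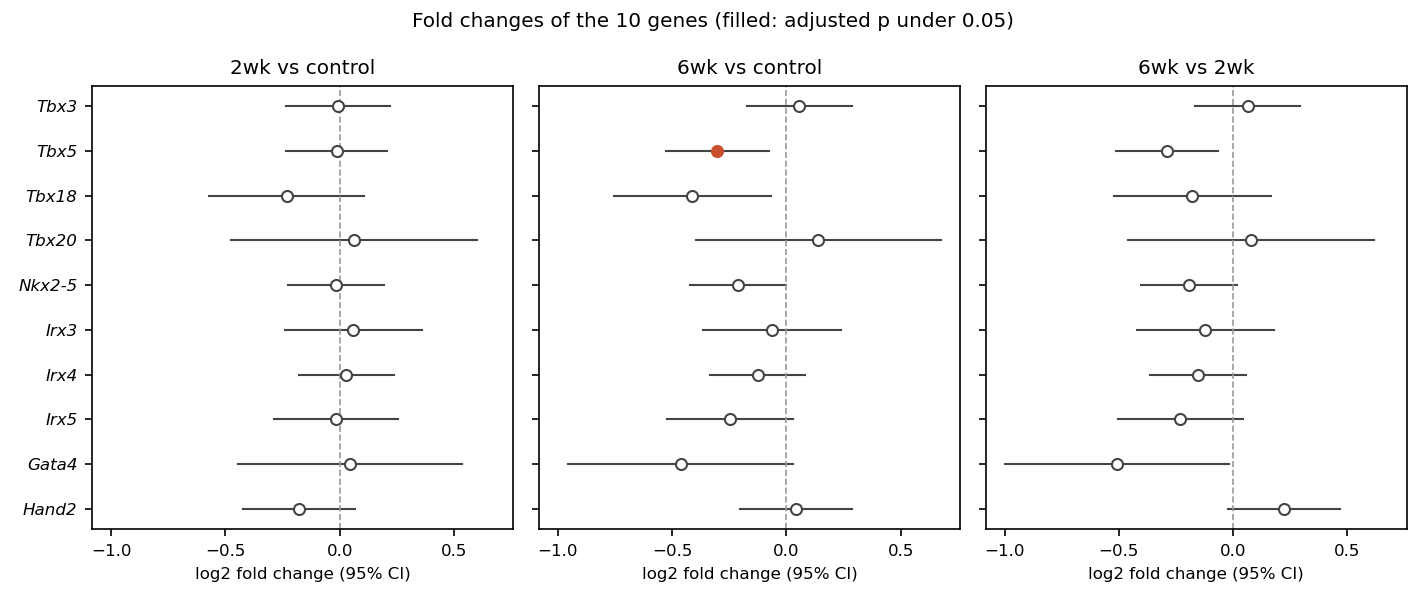
Log2 fold changes with 95% confidence intervals (edgeR, TMM scaling) of the 10 genes in 3 comparisons, filled where the adjusted p is under 0.05. Tbx5 at 6wk against control, at -0.30, is the 1 filled point, and it stands at 0.08 as log2(TPM + 1).

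Some members lie side by side in the genome. Tbx3 and Tbx5 lie 148 kb apart on chromosome 5, and Irx3 and Irx5 lie 556 kb apart on chromosome 8. Correlations between members were taken on log2 CPM after each group's mean was subtracted, over 18 mice. Tbx3 and Tbx5 had r = 0.07 (-0.06 without that centring), and Irx3 and Irx5 had r = 0.09 (0.18 without it). Among all 45 pairs of members none passed the permutation test after adjustment, and 2 had an unadjusted p under 0.05. Tbx20 and Nkx2-5 had r = -0.61 and rho = -0.63 (permutation p = 0.0137 and p = 0.00728, adjusted 0.307 and 0.326), with r = -0.61 without the 2 mice farthest from the median and r = -0.57 without centring. As log2(TPM + 1), which accounts for transcript length, this pair had r = -0.21 and rho = -0.10, and r = 0.24 without 2 mice. Tbx18 and Irx5 had r = -0.63 and rho = -0.53 (permutation p = 0.00924 and p = 0.0412, adjusted 0.307 and 0.618), and r = -0.38 without 2 mice and r = -0.21 without centring. With library size only, r was -0.58, with -0.33 without 2 mice and -0.53 without centring. As log2(TPM + 1) the values were -0.50, -0.43 and -0.42, so the drop without centring was largest with TMM scaling.

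The genes most like each member over 18 mice were picked as the highest r of log2 CPM, not centred by group, among 15053 genes and are given as a description. For Tbx20 these were Dpy19l1 (r = 0.86, rho = 0.86), which lies 215 kb from it on chromosome 9, and Tpm2, a tropomyosin gene (r = 0.83, rho = 0.85). For Gata4 they were Mrpl35, a mitochondrial ribosomal protein gene on chromosome 6 (r = 0.93, rho = 0.67), and Blk (r = 0.90, rho = 0.51). Mrpl35 was at 1.05 CPM in 6wk replicate 6 and at 16.5 CPM or more in the other 17 mice. For Tbx5 they were Aldh1b1 (r = 0.88, rho = 0.89) and Stard10 (r = 0.82, rho = 0.75), and for Nkx2-5 they were Mrpl38 (r = 0.86, rho = 0.78) and Hook1 (r = 0.86, rho = 0.63). For Hand2 they were Csrnp1 and Nr4a3 (r = 0.84 and 0.82, rho = 0.82 and 0.80), both immediate early genes. Tbx18 was most like Coa5 (r = 0.82, rho = 0.72) and Ddx19a (r = 0.76, rho = 0.71), and Tbx3 was most like Hpn (r = 0.71, rho = 0.65) and Cep128 (r = 0.71, rho = 0.75). Irx3 was most like Ahdc1 (r = 0.75, rho = 0.72) and Thap11 (r = 0.74, rho = 0.81), and Irx4 was most like Itgb6 (r = 0.74, rho = 0.72) and Fam160a2 (r = 0.72, rho = 0.65). Irx5 was most like Radil (r = 0.82), where rho was 0.43, and Fbxl6 (r = 0.81, rho = 0.75).

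Other transcription factors of the cardiac network were counted from a list. Of 34 related factors 30 were tested, and at 2 weeks none passed edgeR's test (8 had an unadjusted p under 0.05, and DESeq2 called 3). At 6 weeks 10 of the 30 passed, 9 lower and 1 higher, against 25.0% of all genes, with a median log2 fold change of -0.16. The calls were 2 lower and 6 higher with library size only, and 12 higher with none lower as log2(TPM + 1). The 5 with the smallest adjusted p were lower by edgeR with TMM scaling. Esrrg, a nuclear receptor of oxidative metabolism, fell by 0.43 on the log2 scale (SE 0.0651, adjusted p = 0.000118) but was 0.02 higher as log2(TPM + 1). Hopx, a homeodomain cofactor of myocyte maturation, fell by 0.63 (SE 0.1, adjusted p = 0.000179) and had the same sign without TMM scaling. Prox1, which acts in myocyte structure, fell by 0.40 (adjusted p = 0.000541), and the nuclear receptor Esrrb fell by 0.43 (adjusted p = 0.00188), while Prox1 was 0.025 higher as log2(TPM + 1). Meis1, a TALE homeodomain factor, fell by 0.29 (adjusted p = 0.00527) and stood 0.12 higher as log2(TPM + 1). The 1 higher gene was the epicardial factor Wt1, named after its value was seen, at 0.67 (SE 0.174, edgeR adjusted p = 0.00849) and higher on each scale. From 2 to 6 weeks, by edgeR's quasi-likelihood test, 2 of the 30 factors passed, Hopx at -0.48 and Esrra, a partner of Esrrg, at -0.24 (edgeR adjusted p = 0.0135 and adjusted p = 0.0431).

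Genes of conduction and working muscle, many of them known targets of the members, formed another list. Of 35 such genes 33 were tested. At 2 weeks 2 passed, both lower, against 5.02% of all genes. Pln, which restrains the calcium pump, was at -0.37 (SE 0.078, edgeR adjusted p = 0.0118), and the pacemaker channel gene Hcn2 was at -0.61 (SE 0.164, edgeR adjusted p = 0.0388). At 6 weeks 20 of 33 passed, 18 lower and 2 higher, against 25.0% of all genes, with a median log2 fold change of -0.41. The count at 6 weeks was 12 (7 lower, 5 higher) with library size only and 11 (3 lower, 8 higher) as log2(TPM + 1). Ryr2, Actc1 and Pln are also among the cardiomyocyte markers, as are Myh6, Myl2, Tnni3 and Tnnt2, named only for this overlap. The counts of the 2 lists thus draw in part on the same genes. The summed level of those markers was lower at 6 weeks, and its part in these counts was not tested.

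Among the 5 with the smallest adjusted p at 6 weeks, 4 were lower. Ryr2, the calcium release channel, fell by 0.60 (SE 0.0953, edgeR adjusted p = 0.000168), and Actc1, cardiac actin, fell by 0.61 (SE 0.103, edgeR adjusted p = 0.000292). Kcnip2, a subunit gene of the channel of the transient outward current, fell by 0.75 (SE 0.135, edgeR adjusted p = 0.000485). Kcnk3, a background potassium channel gene, fell by 0.47 (SE 0.0854, edgeR adjusted p = 0.000609). Gjc1, which encodes the nodal connexin, rose by 0.54 (SE 0.104, edgeR adjusted p = 0.000923). These 5 kept their sign with library size only and as log2(TPM + 1). The other higher gene was Ankrd1, a stress-responsive muscle gene named after its value was seen, at 0.61 (SE 0.169, edgeR adjusted p = 0.0118). From 2 to 6 weeks 3 of 33 passed, all lower, against 5.33% of all genes, and they were Kcnd3 at -0.43, Kcnip2 at -0.53 and Actc1 at -0.40 (edgeR adjusted p = 0.03, 0.0314 and 0.0332).

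The connexin genes Gja5 and Gja1, known targets of the T-box and NK2 factors and named outside the rule, did not pass at 6 weeks with TMM scaling. The log2 fold change of Gja5, the connexin gene of Purkinje fibres, was -0.05 (SE 0.174, edgeR adjusted p = 0.886). That of Gja1, the main ventricular connexin gene, was 0.00 (SE 0.0849, edgeR adjusted p = 0.995). This value is relative to the TMM baseline. Before scaling, Gja1 had a mean of 7764 counts in control mice and 8302 at 6 weeks, where mean totals were 14145000 and 12711000. Of 7 Purkinje fibre markers, Gja5 among them, 6 lay below 0 at 6 weeks, as did 7926 of all 15054 genes. In edgeR 4 had an unadjusted p under 0.05, against 36.2% of all genes, and 1 passed, against 25.0%. That gene was Cntn2, a contactin of the conduction system named after its value was seen, at -0.66 (SE 0.225, edgeR adjusted p = 0.0377), which was -0.40 with library size only (adjusted p = 0.18) and -0.28 as log2(TPM + 1) (limma adjusted p = 0.207). The summed level of the 7 markers ran from 57.9 to 80.1 CPM in control mice and from 38.5 to 67.9 CPM at 6 weeks (exact permutation p = 0.0325, adjusted p = 0.0812 over 45 tests).

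**Figure D5:**
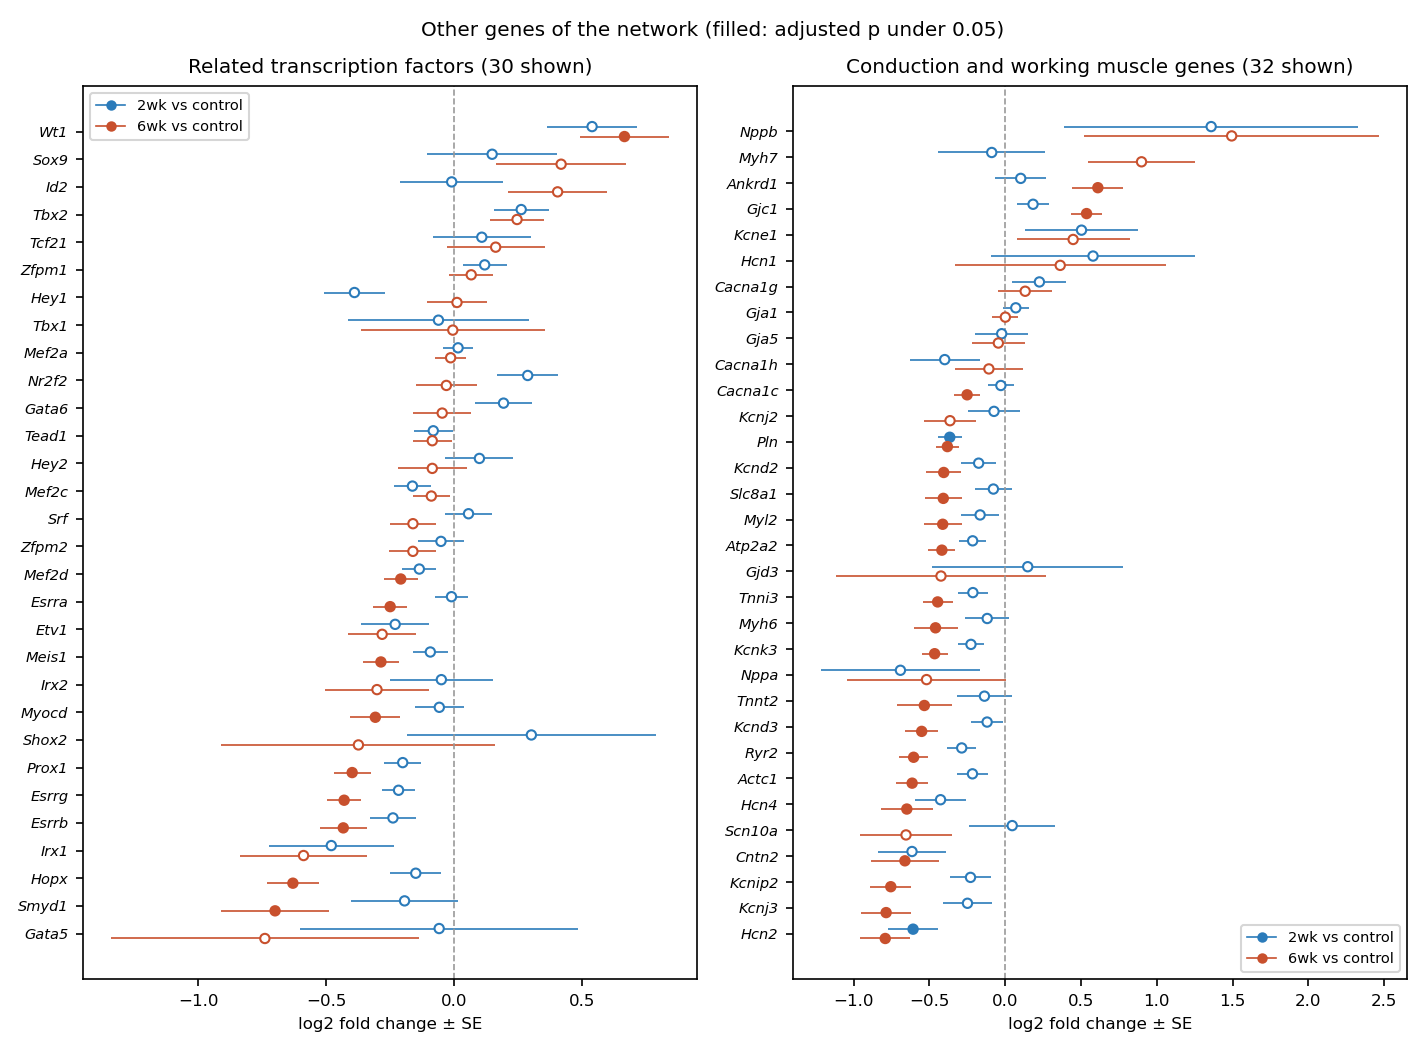
Log2 fold changes ± SE (edgeR, TMM scaling) at 2wk and 6wk against control for related transcription factors and for conduction and working muscle genes, ordered by the value at 6wk and filled where the adjusted p is under 0.05. At 6wk 10 and 20 points are filled, mostly below 0 with TMM scaling, whereas as log2(TPM + 1) 12 related factors were called, all higher.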

How the data were processed

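RNA of 18 mice was sequenced individually and each mouse was a replicate. The authors aligned the reads to GRCm38 (STAR), estimated transcript abundance (Salmon 1.0) and collapsed it to gene level (tximport). The deposited estimated counts were not normalized between mice, and the deposited TPM values are scaled by the authors for length and depth within a mouse. Whether counting used strand is not given in the sources used here, so reads from the antisense genes that overlap Tbx3 (Tbx3os1), Irx3 (Irx3os), Hand2 (Hand2os1) and Tbx18 (D030062O11Rik) cannot be told apart from theirs.

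Counts were rounded and fitted in R 4.3.3 with edgeR 4.0.16 (TMM, glmQLFit with legacy = FALSE, 3 groups, quasi-likelihood F test, two-sided). A gene was kept if 6 or more mice reached 0.23 CPM, which left 15054. Benjamini-Hochberg adjustment ran over these in each comparison, and a gene was called at an adjusted p under 0.05. Log2 CPM used a prior count of 2, and correlations between members were centred by group and tested with 100000 permutations within groups. Positions come from GENCODE M21 on GRCm38. The code was tested on simulated counts. Alternatives used DESeq2 1.42.0, limma 3.58.1, other scalings and filters, log2(TPM + 1) and log2(TPM + 0.1), covariates, a replicate block, and leaving out each mouse.

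The members and gene lists were chosen with earlier results of these data known. Named genes are the members and the 5 genes with the smallest adjusted p in each of the 2 lists and comparisons. The 2 genes most like each member are also named. Other names are marked as chosen after their values were seen or as named for another reason. The genes near Gata4 and the markers beside Tbx5 were also chosen after the values were seen. Some genes of the lists are counted but not reported here by name.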

Additional observations from a re-analysis of the deposited data

Results flagged for a closer look

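Irx4 in 6wk replicate 2 was the lowest of its group at 24.6 CPM, farther from the other 5 mice than Dixon's 95% limit allows. It was 1 of 30 groups of 6 mice examined for the members, where chance picks out about 1 in 20.

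The change against control differed between 2 and 6 weeks for 5 genes of the network lists, by edgeR's test of 6wk against 2wk. They were 2 of 30 related factors and 3 of 33 conduction and working muscle genes, against 5.33% of all genes tested. The log2 difference was -0.48 for Hopx, -0.24 for Esrra, -0.43 for Kcnd3, -0.53 for Kcnip2 and -0.40 for Actc1. All 5 kept their sign without TMM scaling, where Hopx passed with library size only (adjusted p = 0.0452) and none passed as log2(TPM + 1). No member differed between 2 and 6 weeks past the test.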

How the results depend on the processing

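The directions of the members followed the scaling. Of 510 log2 fold changes of members under alternatives that kept all mice, 451 kept their direction and side of the threshold, 42 reversed, 9 lost a call and 8 gained one. Of 540 with a mouse left out, 495 kept both, 33 reversed, 10 lost a call and 2 gained one. The causes were not tested. At 2 weeks, library size only gave 0.14 for Tbx3, Tbx5, Nkx2-5 and Irx5. Upper quartile scaling gave 0.0011 for Tbx3, and sample weights gave 0.0078 for Tbx5. As log2(TPM + 1) the values at 2 weeks were 0.23 for Tbx3, 0.19 for Tbx5, 0.057 for Tbx18, 0.18 for Nkx2-5, 0.12 for Irx5 and 0.031 for Hand2, and as log2(TPM + 0.1) they were 0.26, 0.22, 0.081, 0.18, 0.18 and 0.033. Length-scaled counts gave 0.043 for Tbx3 and -0.021 for Irx4, and the atrial covariate gave 0.015 for Tbx3 and 0.0028 for Tbx5. At 6 weeks, library size only gave 0.051 for Nkx2-5, 0.21 for Irx3, 0.14 for Irx4 and 0.018 for Irx5. As log2(TPM + 1) they were 0.080 for Tbx5, 0.14 for Nkx2-5, 0.24 for Irx3, 0.22 for Irx4 and 0.069 for Irx5, and as log2(TPM + 0.1) they were 0.092, 0.15, 0.27, 0.24 and 0.091. Length-scaled counts gave -0.012 for Tbx20 at 6 weeks and -0.15 for 6wk against 2wk. For 6wk against 2wk, log2(TPM + 1) gave 0.029 for Irx3 and 0.0085 for Irx4, and log2(TPM + 0.1) gave 0.031 and 0.0080. With a mouse left out, values at 2 weeks ranged from -0.092 to 0.042 for Tbx3, -0.092 to 0.034 for Tbx5, -0.082 to 0.27 for Tbx20, -0.052 to 0.023 for Nkx2-5, -0.022 to 0.070 for Irx4, -0.050 to 0.014 for Irx5 and -0.054 to 0.10 for Gata4. At 6 weeks they ranged from -0.17 to 0.0064 for Irx3 and -0.024 to 0.13 for Hand2, and for 6wk against 2wk from -0.038 to 0.22 for Tbx20. The number of members called at 6 weeks, 1 with TMM scaling in edgeR, was 0 with limma voom, sample weights, upper quartile scaling, no filter, the Y-linked covariate, the atrial covariate, a test against a log2 fold change of 1 and an added limit of 1 on the fold change, 2 with library size only, 3 on both TPM scales, and 0 to 3 with a mouse left out. Over all genes at 2 weeks, 755 calls became 1229 with DESeq2, 1789 with library size only, 2813 and 3026 as log2(TPM + 1) and log2(TPM + 0.1), 492 with length-scaled counts, 10 in the test against a log2 fold change of 1 and 136 with that limit added, and 453 to 882 with a mouse left out. At 6 weeks 3760 became 5820, 7472 and 7463 with library size only and the TPM scales, 146 in the test against 1 and 896 with the limit, and 3089 to 3927 with a mouse left out. For 6wk against 2wk 802 became 1 and 172 with these limits, and 323 to 995 with a mouse left out. Related factors called at 2 weeks, 0 in edgeR, were 3 with DESeq2, 4 with library size only, 7 on both TPM scales and 0 to 1 with a mouse left out. At 6 weeks the 10 became 0 with either limit and 7 to 11 with a mouse left out. For 6wk against 2wk the 2 became 4 with DESeq2 and with sample weights, 1 without a filter and on both TPM scales, 0 with either limit and 1 to 4 with a mouse left out. Conduction genes called at 2 weeks, 2 in edgeR, were 4 with DESeq2 and with the atrial covariate, 0 with library size only and with either limit, and 1 to 3 with a mouse left out. At 6 weeks the 20 became 12 with library size only, 11 on both TPM scales, 0 with either limit and 15 to 21 with a mouse left out. For 6wk against 2wk the 3 became 7 with DESeq2, 8 with sample weights, 5 with limma voom, 6 with the Y-linked covariate, 0 with either limit and 0 to 8 with a mouse left out. Mice with the same replicate number did not deviate together, with correlations from -0.083 to 0.106 over 18 pairs, 2 of them over 0.1. With the replicate block 0 members were called at 6 weeks, and the block gave 586, 3549 and 542 calls over all genes at 2 weeks, 6 weeks and between them, 1 related factor at 2 weeks, and 1 related factor and 1 conduction gene between 2 and 6 weeks. The length-scaled counts, the atrial covariate and a cardiomyocyte marker covariate were added after the data were seen, and with the last, whose groups at 6 weeks and control did not overlap with TMM scaling, 690, 85 and 2 genes and 0 members were called. Depth limited Irx5 and Tbx18 most, with 49 to 100 and 83 to 183 counts.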
